A study of Homo sapiens with 12 samples.

Results

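The 7 genes described here encode histones whose mRNA can be made as a polyadenylated form, and they are HIST1H1C, HIST1H2AC, H2AFJ, HIST1H2BD, HIST1H2BK, HIST2H2BE, and HIST1H4H. They belong to a group of 8 chosen by name, as the rows with given symbols among the 23273 rows of each expression table, and all 8 were found. The names were chosen with earlier results of these data known, so shares of members that passed are descriptions and not independent tests. All counts and medians over members below are over the 7. RNA-seq was performed on COLO858 and MMACSF, a pair of melanoma cell lines carrying mutant BRAF, grown with DMSO (vehicle) or with 0.2 μM vemurafenib, an inhibitor of the mutant BRAF kinase, for 24 or 48 h. Each of the 6 groups had 2 libraries from replicate plates, and the labels do not say at which time the DMSO plates were harvested. The labels name no transgene, and each response is that of 1 cell line. Replicates are plates of 1 line, so p-values measure the spread between plates and libraries, which may be technical.

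Histones package DNA into nucleosomes, with H2A, H2B, H3, and H4 forming the core and linker H1 binding the DNA between cores. Most core histone genes sit in clusters, are transcribed in S phase, and end their mRNAs at a short stem-loop that the stem-loop binding protein SLBP recognizes, with no poly(A) tail. A subset of clustered genes can instead use a downstream polyadenylation site, and such transcripts are known to increase when cells leave the cell cycle and differentiate. H2AFJ lies outside the clusters, encodes a replacement histone, and produces polyadenylated mRNA throughout the cell cycle. The libraries were made from poly(A)-selected mRNA, so stem-loop-ended histone mRNA is largely outside this measurement.

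The stem-loops are shown because they separate the 6 clustered genes from H2AFJ. In the 150 bases after the stop codon (GRCh37), a 16-base hairpin of the histone stem-loop type, with 6 paired stem positions, was found in all 6 clustered genes and not in H2AFJ. The same search found it in 71 of 19425 protein-coding genes (0.366%). The stem is in capitals and the loop of 4 bases in lower case:
HIST1H1C (chr6:26055972-26055987, minus strand): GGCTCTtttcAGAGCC
HIST1H2AC (chr6:26124897-26124912, plus strand): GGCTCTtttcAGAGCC
HIST2H2BE (chr1:149857738-149857753, minus strand): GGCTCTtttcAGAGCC
HIST1H2BD (chr6:26158815-26158830, plus strand): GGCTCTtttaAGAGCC
HIST1H2BK (chr6:27114145-27114160, minus strand): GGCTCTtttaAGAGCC
HIST1H4H (chr6:26285359-26285374, minus strand): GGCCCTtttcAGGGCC

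HIST1H1C, HIST1H2AC, and HIST2H2BE carried the same hairpin, HIST1H2BD and HIST1H2BK shared a second that differed in the last loop base, and the H4 gene had its own stem. It began 27 bases after the stop codon in HIST1H1C, 43 in HIST1H2AC, 36 in HIST1H2BD and HIST1H2BK, 56 in HIST2H2BE, and 41 in HIST1H4H. Annotation also held longer forms for 4 of the 6. At least 1 GENCODE transcript ended more than 50 bases past the hairpin in HIST1H2AC, HIST1H2BD, HIST2H2BE, and HIST1H4H, with the farthest end 14491, 12799, 1801, and 7579 bases after the stop codon. HIST1H1C and HIST1H2BK each had 1 annotated transcript, which ended at the hairpin. Of the 64 other rows for clustered histone genes, 56 could be placed on GRCh37 with a stop codon. All 56 had the hairpin, and 12 had such a longer transcript. Whether reads came from the short or the long form cannot be told from gene values.

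By this annotation HIST1H1C lies at chr6:26055968-26056698, HIST1H2AC at chr6:26124373-26139344, HIST1H2BD at chr6:26158350-26171577, HIST1H4H at chr6:26277837-26285866, and HIST1H2BK at chr6:27114140-27114634. HIST2H2BE lies at chr1:149856009-149858232 and H2AFJ at chr12:14927339-14930936. Near-identical copies bear on some values. Of the 50-base windows of annotated HIST1H2BK transcripts, 57.2% also occurred in transcripts of other genes, against 8% for HIST2H2BE, 5.43% for HIST1H2BD, 0.421% for HIST1H2AC, and 0 windows for HIST1H1C, HIST1H4H, and H2AFJ. Reads of HIST1H2BK are therefore uncertain in origin where its value alone is given. HIST1H4H and HIST1H2BD overlap genes annotated on the opposite strand, and the strand setting of the counting is not given in the sources used here.

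Promoters are shown for 3 clustered genes: HIST2H2BE and HIST1H2AC, which rose at both times in both lines, and HIST1H4H, which had the largest log2 change in COLO858. HIST1H2BD also rose at both times in both lines, and its promoter is not printed. Sequences are the 250 bases before the RefSeq start (table of GRCh38.p14, placed on GRCh37 by exact match), and capitals mark, on either strand, CCAAT (the CCAAT box), TATAAA (the TATA box), ATTTGCAT (the octamer of H2B promoters), and AAACACA (the H1 box):
HIST2H2BE (chr1:149858233-149858482, minus strand): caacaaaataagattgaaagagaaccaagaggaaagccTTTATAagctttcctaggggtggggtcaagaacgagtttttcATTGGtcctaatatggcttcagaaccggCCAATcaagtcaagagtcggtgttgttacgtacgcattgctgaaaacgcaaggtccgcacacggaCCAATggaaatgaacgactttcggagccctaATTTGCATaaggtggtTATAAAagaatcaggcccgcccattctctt
HIST1H2AC (chr6:26124150-26124399, plus strand): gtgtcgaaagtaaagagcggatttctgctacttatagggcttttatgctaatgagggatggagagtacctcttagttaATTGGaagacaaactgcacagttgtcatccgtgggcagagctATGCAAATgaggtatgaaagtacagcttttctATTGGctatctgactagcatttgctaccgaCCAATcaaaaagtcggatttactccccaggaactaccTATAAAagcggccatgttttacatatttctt
HIST1H4H (chr6:26285763-26286012, minus strand): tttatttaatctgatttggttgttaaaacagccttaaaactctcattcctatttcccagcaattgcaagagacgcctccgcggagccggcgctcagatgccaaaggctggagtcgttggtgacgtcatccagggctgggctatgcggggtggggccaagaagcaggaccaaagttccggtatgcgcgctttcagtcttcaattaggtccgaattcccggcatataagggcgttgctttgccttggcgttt

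None of the 4 motifs occurred in the HIST1H4H window, while the CCAAT box occurred 3 times in each of the other windows shown. Those windows also held the octamer, which the HIST1H2BD window did not. Over the promoters of the 7 genes, the CCAAT box was present in 6, the TATA box in 4, the octamer in 3, and the H1 box in 1, the H1 gene HIST1H1C. The same motifs were present in 33.0%, 11.1%, 1.66%, and 4.95% of 27305 promoters of this length. Among 56 promoters of the other clustered histone genes, 48 held the CCAAT box, 37 the TATA box, 23 the octamer, and 5 the H1 box. TATA box matches on opposite strands overlap each other once, in HIST1H2BK. The CCAAT and TATA boxes and the octamer were thus found both in members and in other clustered histone genes, though none was in the HIST1H4H window.

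Values are FPKM (mapped fragments per kilobase of a gene's transcript, adjusted for library size), deposited as 1 table per line, and their read depth is unknown. The labels call the tables normalized counts, and the unit was taken from the study's methods and the range of the values, so any comparison of levels between genes rests on that reading. They sum to 670310 to 1013038 per library, of which the small RNA row MIR4461 alone made up 14.1% to 43.4%, and 11679 to 11972 rows reached 1 FPKM. The melanoma markers MITF, SOX10, PMEL, DCT, and S100B were at 56.2 FPKM or more in all 12 libraries, while MLANA and TYR were at 1.21 FPKM or less in COLO858 and at 178 or more in MMACSF. Of the markers of other cell types, PTPRC, PECAM1, KRT5, and KRT14 did not exceed 0.448 FPKM, DCN reached 3.26, and LUM ranged from 5.30 to 73.3. Within the groups, replicate 1 held the higher member value in 16 of 18 gene and group pairs in COLO858 and in 13 of 21 in MMACSF. The typical gene ran the other way. The median ratio of a library to the line's mean level was lower in replicate 1 of every group. Under DMSO in COLO858 it was 0.926 against 1.02.

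**Figure D1:**
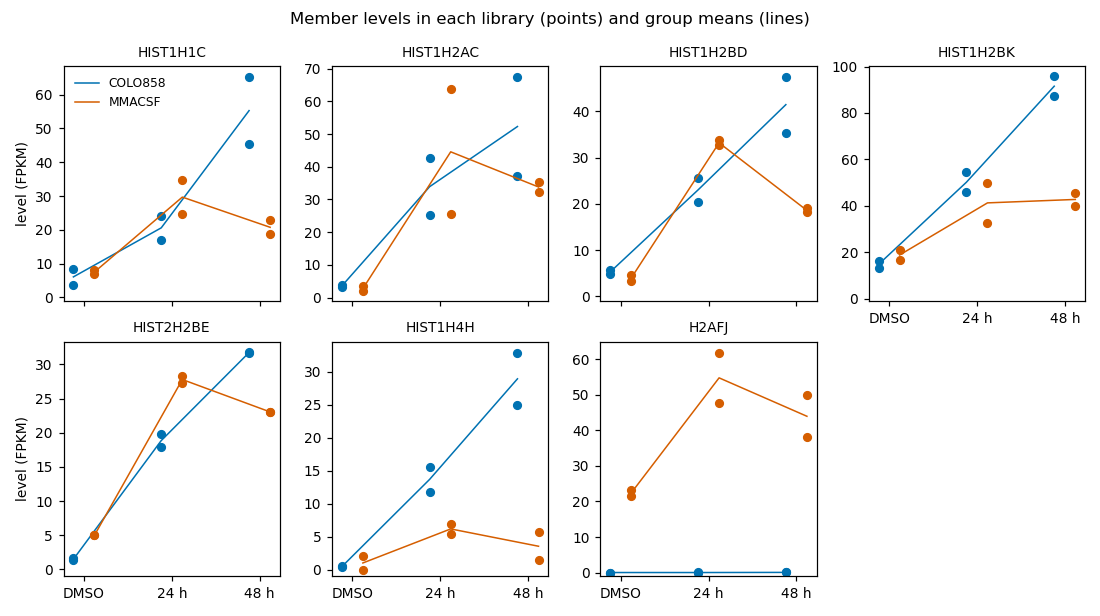
Level of each of the 7 genes (FPKM, vertical axes, each with its own scale) in the DMSO, 24 h, and 48 h libraries of COLO858 (blue) and MMACSF (orange), with points for libraries and lines through group means. The 6 clustered genes (names beginning HIST) rose from DMSO to 48 h in COLO858, and H2AFJ was present in MMACSF and at 0.0833 FPKM or less in COLO858.

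The linker histone gene was higher with drug at both times in both lines. It passed the adjusted p threshold of 0.01 at 48 h in COLO858 and at 24 h in MMACSF. HIST1H1C, which encodes linker histone H1.2, was at 8.39 and 3.79 FPKM under DMSO in COLO858, at 24.2 and 17.0 after 24 h, and at 65.3 and 45.3 after 48 h. In MMACSF it was at 8.11 and 6.97 FPKM under DMSO, 34.6 and 24.7 after 24 h, and 22.8 and 18.7 after 48 h. All drug-treated libraries were above all DMSO libraries in both lines, with the highest values at 48 h in COLO858 and at 24 h in MMACSF. The log2 fold-change on log2(FPKM + 1), the scale of every fold-change below, was 1.67 ± 0.39 (SE, adjusted p = 0.0325, limma with Benjamini-Hochberg adjustment) at 24 h and 3.05 ± 0.39 (adjusted p = 0.00635) at 48 h in COLO858. The corresponding values in MMACSF were 1.83 ± 0.21 (adjusted p = 0.00589) and 1.35 ± 0.21 (adjusted p = 0.0101). With a threshold of 0.01, HIST1H1C therefore passed at 48 h in COLO858 and at 24 h in MMACSF.

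The H2A genes were split between a clustered gene present in both lines and a replacement gene present in 1. HIST1H2AC was at 3.79 and 3.27 FPKM under DMSO in COLO858, at 42.6 and 25.2 after 24 h, and at 67.4 and 37.2 after 48 h. Its MMACSF values were 2.00 and 3.50 under DMSO, 63.7 and 25.4 after 24 h, and 35.3 and 32.3 after 48 h. No drug-treated library overlapped a DMSO library, and replicates lay far apart at 24 and 48 h in COLO858 and at 24 h in MMACSF, but not at 48 h in MMACSF. HIST1H2AC rose at both times in both lines, by 2.90 ± 0.37 (limma adjusted p = 0.00571) and 3.50 ± 0.37 (adjusted p = 0.00387) in COLO858 and by 3.49 ± 0.44 (adjusted p = 0.00769) and 3.24 ± 0.44 (adjusted p = 0.00754) in MMACSF.

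H2AFJ, which encodes the replacement variant H2A.J, was at 21.6 and 23.2 FPKM under DMSO in MMACSF, at 61.8 and 47.6 after 24 h, and at 38.1 and 49.8 after 48 h. The drug-treated libraries were all higher, and the log2 fold-changes of 1.24 ± 0.19 (limma adjusted p = 0.0127) and 0.93 ± 0.19 (adjusted p = 0.0230) missed the threshold. In COLO858 it was listed at 0 to 0.0833 FPKM and was not tested. H2AFJ was thus expressed in 1 of the 2 lines, while the 6 clustered genes had a level in both. The lines' tables were normalized separately, so their levels were not tested against each other.

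The 3 H2B genes were all higher with drug in every library. HIST2H2BE, the clustered H2B gene on chromosome 1, was at 1.60 and 1.35 FPKM under DMSO in COLO858, at 19.8 and 17.9 after 24 h, and at 31.8 and 31.7 after 48 h. In MMACSF it was at 4.96 and 5.02 FPKM under DMSO, 27.3 and 28.3 after 24 h, and 23.05 and 23.05 after 48 h. Its replicates were close, and the 3 groups of each line did not overlap. HIST2H2BE rose at both times in both lines, by 3.0 ± 0.14 (limma adjusted p = 0.000678) and 3.73 ± 0.14 (adjusted p = 0.000319) in COLO858, and by 2.27 ± 0.11 (adjusted p = 0.000856) and 2.01 ± 0.11 (adjusted p = 0.000752) in MMACSF.

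HIST1H2BD was at 4.90 and 5.59 FPKM under DMSO in COLO858, at 25.7 and 20.3 after 24 h, and at 47.5 and 35.4 after 48 h. In MMACSF its values were 3.25 and 4.64 under DMSO, 33.7 and 32.7 after 24 h, and 19.0 and 18.1 after 48 h. The order of the drug-treated groups was opposite in the 2 lines, with 48 h highest in COLO858 and 24 h highest in MMACSF, and no 2 groups of a line overlapped. HIST1H2BD rose by 1.93 ± 0.21 (limma adjusted p = 0.00376) and 2.75 ± 0.21 (adjusted p = 0.00156) in COLO858, and by 2.80 ± 0.17 (adjusted p = 0.00137) and 2.00 ± 0.17 (adjusted p = 0.00204) in MMACSF.

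HIST1H2BK, the member with the highest DMSO level among the clustered genes, was at 16.04 and 13.4 FPKM under DMSO in COLO858, at 54.4 and 45.9 after 24 h, and at 96.0 and 87.1 after 48 h. Its MMACSF values were 21.1 and 16.5 under DMSO, 50.0 and 32.5 after 24 h, and 45.7 and 39.8 after 48 h. Groups did not overlap in COLO858, while the 24 and 48 h groups overlapped in MMACSF. HIST1H2BK rose in COLO858, by 1.70 ± 0.16 (limma adjusted p = 0.00279) and 2.56 ± 0.16 (adjusted p = 0.00110), and in MMACSF the estimates of 1.07 ± 0.24 (adjusted p = 0.0342) and 1.15 ± 0.24 (adjusted p = 0.0240) did not pass. As given above, most 50-base windows of this gene are shared with other genes.

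HIST1H4H, the single H4 gene among the members, had the lowest DMSO level of the clustered members in both lines. In COLO858 it was at 0.391 and 0.467 FPKM under DMSO, at 15.5 and 11.8 after 24 h, and at 32.9 and 24.9 after 48 h. In MMACSF it was at 0 and 2.00 FPKM under DMSO, at 6.98 and 5.35 after 24 h, and at 5.68 and 1.39 after 48 h. The COLO858 groups did not overlap, and in MMACSF the DMSO and 48 h values overlapped. HIST1H4H rose in COLO858 by 3.35 ± 0.21 (limma adjusted p = 0.00102) at 24 h and by 4.38 ± 0.21 (adjusted p = 0.000552) at 48 h, and the MMACSF estimates of 2.04 ± 0.68 (adjusted p = 0.0922) and 1.21 ± 0.68 (adjusted p = 0.248) did not pass.

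**Figure D2:**
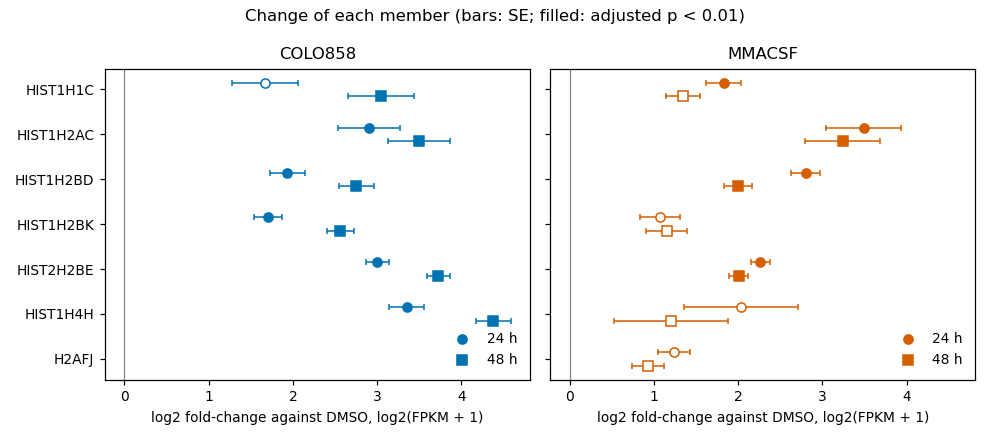
Log2 fold-change against DMSO on log2(FPKM + 1) (horizontal axis) for each of the 7 genes (rows; H2AFJ was not tested in COLO858) at 24 h (circles) and 48 h (squares) in COLO858 (left) and MMACSF (right), with bars for the SE and filled symbols for adjusted p under 0.01 (limma). In COLO858 the 48 h symbol lies to the right of the 24 h symbol for all 6 clustered genes, and in MMACSF it lies to the left for 5 of the 6.

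In COLO858, 5 of the 6 genes tested rose at 24 h and 0 fell, against 4.11% of 12696 genes that rose and 5.71% that fell. Because the members were chosen with earlier results of these data known, such shares describe the group and do not test it. At 48 h, 6 of 6 rose and 0 fell, against 4.74% and 4.73% of genes. The median log2 fold-change of the 6 genes was 2.42 at 24 h and 3.27 at 48 h, and that of all genes tested was 0.06 and -0.01. Expressed as ratios of group means without an added constant, the 48 h levels of the clustered genes ranged from 6.23 times (HIST1H2BK) to 67.4 times (HIST1H4H, from a mean under 1 FPKM) the DMSO level. Both comparisons use the same DMSO libraries. FPKM is a share of the RNA in the library, and in bulk cells a change in the fraction of cells making a transcript and a change in RNA per cell cannot be told apart. The counts rest on few libraries. Without any 1 library of the groups compared, 1 group held a lone library, and fewer members and fewer of all genes passed at both times.

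In MMACSF, 4 of 7 genes tested rose at 24 h (HIST1H1C, HIST1H2AC, HIST1H2BD, and HIST2H2BE), against 2.22% of 12599 genes that rose and 3.60% that fell. At 48 h, 3 of 7 rose (HIST1H2AC, HIST1H2BD, and HIST2H2BE), against 3.42% and 5.41% of genes. No member fell at either time, and all 7 had positive estimates, with medians of 2.04 and 1.35 against 0.07 and 0.06 for all genes tested. HIST1H1C at 48 h missed the threshold narrowly. These counts also rest on few libraries: without any 1 library of the groups compared, fewer members and fewer of all genes passed at both times.

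Between 24 and 48 h no member passed in either line in the fit used here, which did not pair libraries by replicate number. In COLO858 all 6 clustered genes were higher at 48 h, by 0.60 to 1.38 on the log2 scale with a median of 0.84, and 0 of 6 passed the limma threshold while 5 had an unadjusted p under 0.05. For comparison, 1.17% of all genes rose and 0.213% fell over this interval, and 20.1% had an unadjusted p under 0.05. In MMACSF the median was -0.31, 0 of 7 passed, and 1 (HIST1H2BD, -0.81 ± 0.17, adjusted p = 0.274) had an unadjusted p under 0.05, with 0.111% of all genes rising, 0.111% falling, and 6.98% at an unadjusted p under 0.05.

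The difference between the lines was tested as an interaction over the 12 libraries. At 24 h against DMSO, 0 of 7 genes differed by limma and 3 had an unadjusted p under 0.05, with 1.78% of 13595 genes higher and 1.93% lower in COLO858 than in MMACSF, and 21.2% at an unadjusted p under 0.05. The nearest were H2AFJ (-1.25 ± 0.23, adjusted p = 0.0140), which has no level in COLO858 to change, and HIST2H2BE (0.74 ± 0.14, adjusted p = 0.0166). At 48 h, 1 of 7 differed. HIST2H2BE rose more in COLO858, by 1.72 ± 0.14 (adjusted p = 0.000181), against 4.19% of genes higher and 3.30% lower. HIST1H2BK (1.41 ± 0.30, adjusted p = 0.0164), HIST1H4H (3.17 ± 0.80, adjusted p = 0.0316), HIST1H1C (1.70 ± 0.48, adjusted p = 0.0485), HIST1H2BD (0.75 ± 0.27, adjusted p = 0.107), and HIST1H2AC (0.25 ± 0.65, adjusted p = 0.863) had estimates in the same direction that did not pass. H2AFJ had one in the opposite direction (-0.88 ± 0.23, adjusted p = 0.0367) that did not pass either. The count was 2 without either 24 h library of MMACSF.

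From 24 to 48 h, 2 of 7 genes differed between the lines, against 2.46% of genes higher and 0.508% lower. HIST1H2BD differed by 1.62 ± 0.27 (limma adjusted p = 0.00984), rising in COLO858 and falling in MMACSF by its estimates, and HIST2H2BE by 0.98 ± 0.14 (adjusted p = 0.00557). All 6 clustered genes had positive estimates here, from 0.78 to 1.86. Without any 1 library fewer members passed, and so did fewer of all genes tested.

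The order of levels between genes is given as a description, since FPKM are per transcript length and the lengths used are not known. Short and long forms cannot be told apart. For HIST1H2BK, 57.2% of 50-base windows also occurred in other genes, so its place is uncertain. Under DMSO in COLO858, HIST1H2BK (14.7 FPKM on average) stood first, followed by HIST1H1C (6.09), HIST1H2BD (5.25), HIST1H2AC (3.53), HIST2H2BE (1.48), and HIST1H4H (0.429), and of these only HIST1H1C had a range that overlapped its neighbour's. At 48 h HIST1H2BK (91.5) was first, ahead of HIST1H1C (55.3), HIST1H2AC (52.3), HIST1H2BD (41.5), HIST2H2BE (31.8), and HIST1H4H (28.9). The ranges of HIST1H1C, HIST1H2AC, and HIST1H2BD ran into each other from one to the next, as did those of HIST2H2BE and HIST1H4H. In MMACSF at 24 h the order was H2AFJ (54.7), HIST1H2AC (44.6), HIST1H2BK (41.2), HIST1H2BD (33.2), HIST1H1C (29.7), HIST2H2BE (27.8), and HIST1H4H (6.16), and only HIST1H4H stood apart from its neighbour's range.

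The clustered histone genes outside the group were mostly at low levels. Of 64 such rows, 14 were listed at 0 in all 12 libraries, 32 stayed below 1 FPKM, and 5 ever reached 10 FPKM. In COLO858, 26 were tested, of which 0 rose and 1 fell at 24 h (median 0.08) and 1 rose and 1 fell at 48 h (median 0.19). A count of 1 of 26 is near the shares of all genes, of which 5.71% fell at 24 h and 4.74% rose and 4.73% fell at 48 h. In MMACSF, 19 were tested, of which 1 rose at 24 h (median 0.71) and 2 at 48 h (median 0.83), and 0 fell, where 2.22% and 3.42% of all genes rose.

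HIST1H2BH, a clustered H2B gene with 1 annotated transcript ending at the hairpin, went the opposite way from the 3 H2B members in COLO858. It was at 96.5 and 63.5 FPKM under DMSO, more than any clustered member, at 17.8 and 15.9 after 24 h, and at 10.2 and 6.17 after 48 h. The fall was -2.15 ± 0.30 (limma adjusted p = 0.00753) and -3.14 ± 0.30 (adjusted p = 0.00294). In MMACSF it was at 0 to 5.14 FPKM throughout. The rows that rose were at low levels. HIST1H4E rose by 1.90 ± 0.26 at 48 h in COLO858 (adjusted p = 0.00743, from 0.670 to 5.22 FPKM on average) and by 1.30 ± 0.15 in MMACSF (adjusted p = 0.00488). In MMACSF it was at 0 in both DMSO and both 24 h libraries, so its own spread rests on the 48 h values of 1.55 and 1.37 FPKM. HIST1H2AE rose by 1.92 ± 0.22 (adjusted p = 0.00616) and 2.04 ± 0.22 (adjusted p = 0.00416) in MMACSF.

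**Figure D3:**
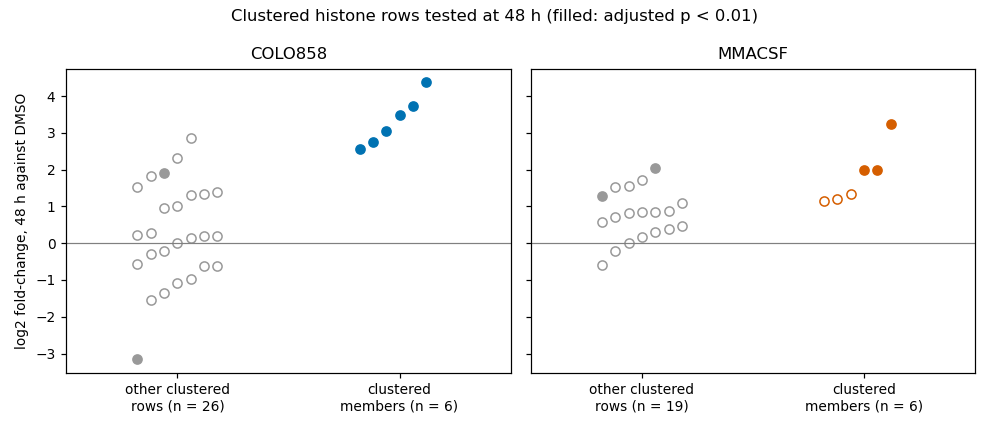
Log2 fold-change at 48 h against DMSO on log2(FPKM + 1) (vertical axis) of each clustered histone row tested, with the other rows in grey (26 in COLO858, 19 in MMACSF) and the 6 members in colour, filled where the limma adjusted p was under 0.01. In COLO858 the members run from 2.56 to 4.38 and the other rows from -3.14 to 2.87, so HIST1H2BC alone of the others lies among them.

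The 6 clustered members together made up 19.0% and 20.8% of the summed FPKM of all 70 clustered histone rows under DMSO in COLO858, 66.2% and 66.8% after 24 h, and 76.6% and 76.6% after 48 h. Their sum went from 35.1 and 27.9 FPKM to 182 and 138 and then to 341 and 262, while that of the other rows went from 149 and 106 to 93.2 and 68.6 and then to 104 and 80.1. In MMACSF the share was 54.1% and 72.4% under DMSO, 70.5% and 78.5% after 24 h, and 67.4% and 71.7% after 48 h, so that the groups overlapped. The lower sum of the other rows with drug in COLO858 rests on HIST1H2BH, which held 96.5 of the 149 FPKM in the first DMSO library. Without it their sums were 52.7 and 42.4 FPKM under DMSO, 75.3 and 52.7 after 24 h, and 98.2 and 69.9 after 48 h, so the direction turned. The members' share was then 39.97% and 39.7% under DMSO, 70.7% and 72.4% after 24 h, and 77.6% and 78.9% after 48 h. Sorted by annotation instead of by membership, 10 clustered rows tested in COLO858 had a transcript ending more than 50 bases past the hairpin, and of these the 4 members rose at 48 h (median of the 10 was 2.53). Without the members, 0 of the other 6 passed, with a median of 0.76. Of 19 rows without a longer transcript, 3 rose and 1 fell (median 0.01), the 3 being HIST1H1C, HIST1H2BK, and HIST1H4E. In MMACSF the medians at 48 h were 1.21 for 13 rows with a longer transcript and 0.98 for 10 without, and 0.83 and 0.87 with the members left out.

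Clustered H2A and H2B genes often share a promoter and are transcribed in opposite directions, and 3 members have such a neighbour, named here for its position. HIST1H2AC starts 219 bases from HIST1H2BC, HIST1H2BK starts 251 bases from HIST1H2AH, and HIST2H2BE starts 236 bases from HIST2H2AC. HIST2H2AC was at 5.48 and 6.16 FPKM under DMSO in COLO858, 1.44 and 3.19 after 24 h, and 1.12 and 1.62 after 48 h, and its estimates of -1.09 ± 0.29 (limma adjusted p = 0.0472) and -1.53 ± 0.29 (adjusted p = 0.0183) did not pass but ran against the rise of HIST2H2BE. In MMACSF it did not exceed 0.839 FPKM. HIST1H2AH was at 1.36 to 2.04 FPKM under DMSO and at 24 h in COLO858 and at 0 and 0.370 at 48 h (-1.35 ± 0.21, adjusted p = 0.0105), also against the rise of HIST1H2BK.

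HIST1H2BC was the exception, moving in the same direction as HIST1H2AC. Its COLO858 values were 0 and 3.82 FPKM under DMSO, 8.90 and 9.09 after 24 h, and 14.6 and 15.6 after 48 h, with estimates of 2.19 ± 0.71 (limma adjusted p = 0.0773) and 2.87 ± 0.71 (adjusted p = 0.0382) that did not pass. In MMACSF it was at 0 and 1.09 FPKM under DMSO, 6.41 and 2.93 after 24 h, and 3.99 and 2.54 after 48 h. The MMACSF estimates of 1.90 ± 0.47 (adjusted p = 0.0442) and 1.54 ± 0.47 (adjusted p = 0.0681) did not pass either. It is also the neighbour among these 3 with annotated transcripts ending past the hairpin, 2 of its 3.

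**Figure D4:**
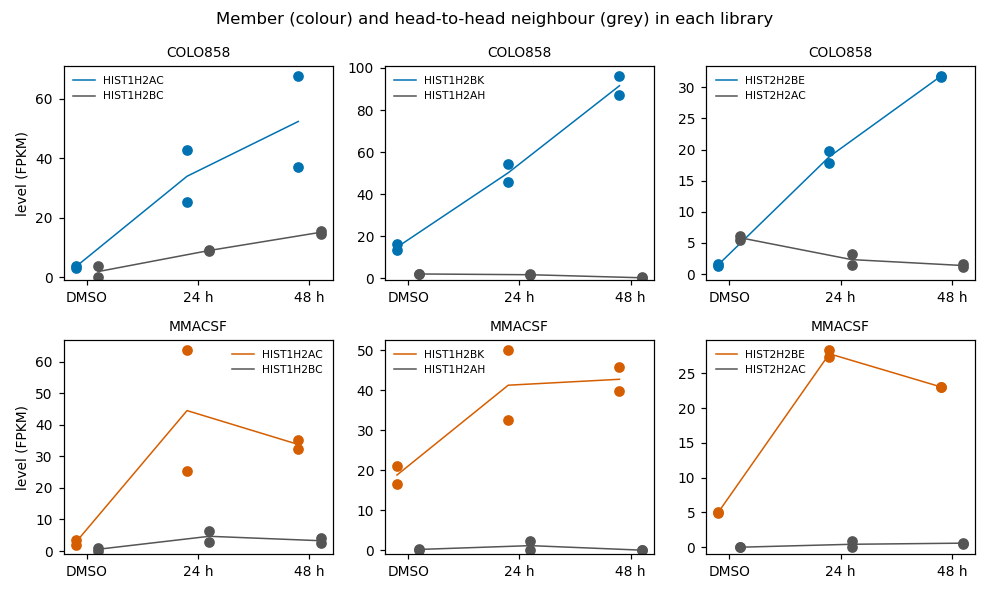
Level (FPKM, vertical axes) of HIST1H2AC, HIST1H2BK, and HIST2H2BE (colour) and of the histone gene that starts head to head with each (grey) in every library (points) with lines through group means, COLO858 above and MMACSF below. In COLO858 the group means of HIST2H2AC run opposite to those of HIST2H2BE and the means of HIST1H2BC run with those of HIST1H2AC at a lower level, but no change of either neighbour passed the limma threshold.

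S phase genes were followed beside the members because replication-dependent histone mRNA is made in S phase. The list held 16 replication genes, among them MCM helicase subunits, PCNA, and RRM2. In COLO858, 15 of 16 fell at 24 h (median -2.98), 0 rose or fell at 48 h (median -0.63), and 13 rose from 24 to 48 h (median 2.44). CDC45, a component of the replicative helicase, fell by -3.87 ± 0.12 at 24 h in COLO858 (limma adjusted p = 0.000283). It was at 57.9 ± 2.49 FPKM (SD, n = 2) under DMSO, 3.02 ± 0.07 after 24 h, and 35.7 ± 0.35 after 48 h. In MMACSF 16 fell at 24 h (median -1.97) and 15 at 48 h (median -2.19). RRM2, a subunit of ribonucleotide reductase, had the largest falls of the list there, -4.12 ± 0.18 (adjusted p = 0.000565) and -4.65 ± 0.18 (adjusted p = 0.000345). CDC45 was at 22.9 ± 1.18, 0.737 ± 0.0081, and 0.703 ± 0.30 FPKM. Against DMSO, members that rose and S phase genes that fell were found together at 24 h in both lines and at 48 h in MMACSF. At 48 h in COLO858 6 members rose and 0 S phase genes passed the threshold. The S phase estimates there still had a median of -0.63, below the DMSO level. The group means of the clustered members in COLO858 were highest at 48 h, although the HIST1H2AC ranges overlapped. Between 24 and 48 h 0 of 6 passed in the fit that did not pair libraries by replicate number. Whether the same cells carried both signals cannot be told apart in bulk RNA.

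**Figure D5:**
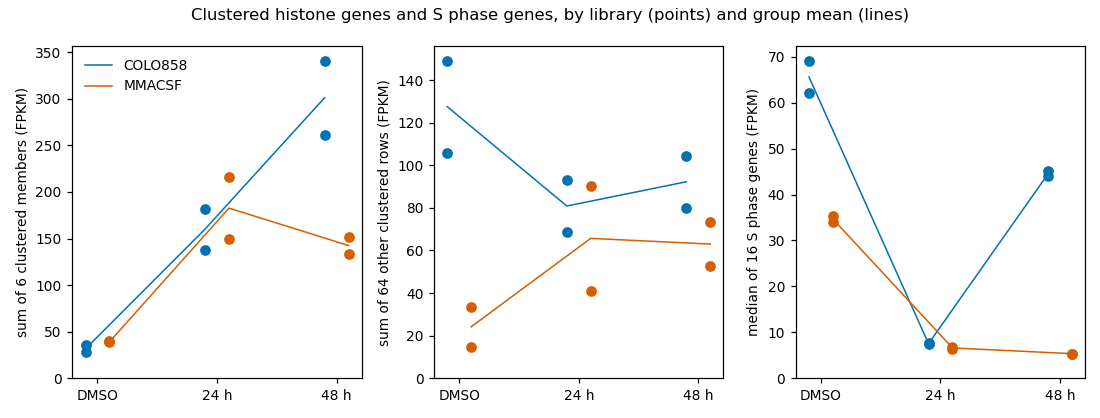
Summed FPKM of the 6 clustered members (left), summed FPKM of the 64 other clustered histone rows (middle), and median FPKM of 16 S phase genes (right) in each library (points) with lines through group means, COLO858 in blue and MMACSF in orange. In COLO858 the member sum climbs at both steps while the S phase median falls from 62.1 and 69.1 to 7.38 and 7.65 and returns to 43.98 and 45.02 FPKM.

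Of 12 genes for histone mRNA processing, 1 passed, and it was SLBP, which binds the stem-loop. It is a single gene, where 5.71% of all genes fell at 24 h in COLO858 and 3.60% in MMACSF. SLBP fell at 24 h by -1.54 ± 0.17 in COLO858 (limma adjusted p = 0.00405), from 62.5 ± 7.40 to 20.9 ± 2.11 FPKM (SD, n = 2), and by -1.07 ± 0.14 in MMACSF (adjusted p = 0.00783), from 26.4 ± 1.04 to 12.1 ± 1.51. At 48 h it was at 41.5 ± 5.53 and 15.1 ± 0.78 FPKM and no gene of the list passed in either line. The SLBP estimates then were -0.58 ± 0.17 (limma adjusted p = 0.0612) in COLO858 and -0.77 ± 0.14 (adjusted p = 0.0154) in MMACSF. Of 19 histone chaperones tested, COLO858 had 6 lower at 24 h and 1 at 48 h, MMACSF had 5 and 6 lower, and 0 were higher. Of all genes, 5.71% and 4.73% fell in COLO858 and 3.60% and 5.41% in MMACSF, so the 1 of 19 at 48 h in COLO858 is near the share of all genes. ASF1B, which hands H3 and H4 to the replication machinery, fell by -3.18 ± 0.17 (adjusted p = 0.000787) at 24 h in COLO858, and HJURP, the CENPA chaperone, by -3.24 ± 0.17 (adjusted p = 0.000797). SSRP1, a subunit of the FACT chaperone, was the chaperone that still passed at 48 h in COLO858 (-1.20 ± 0.11, adjusted p = 0.00280). In MMACSF the 5 that fell at 24 h were ASF1B (-3.01 ± 0.18, adjusted p = 0.00131), HJURP (-2.73 ± 0.20, adjusted p = 0.00207), NASP (-1.24 ± 0.13, adjusted p = 0.00509), CHAF1B (-1.13 ± 0.14, adjusted p = 0.00737), and SSRP1 (-0.86 ± 0.11, adjusted p = 0.00724), and ASF1B had the largest fall at 48 h (-3.87 ± 0.18, adjusted p = 0.000428).

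Of 8 other replacement variants tested, 0 rose with drug at either time in either line. COLO858 had 2 lower at 24 h and 1 at 48 h, and MMACSF had 3 lower at each time. Of all genes, 5.71% and 4.73% fell at these times in COLO858 and 3.60% and 5.41% in MMACSF, and 2.22% to 4.74% rose. The 1 of 8 at 48 h in COLO858 is a single gene. H2AFZ, which encodes H2A.Z and marks promoters, went from 696 ± 66.2 to 196 ± 19.9 and 353 ± 19.4 FPKM (SD, n = 2) in COLO858 and from 355 ± 5.69 to 135 ± 7.60 and 92.0 ± 1.55 in MMACSF, and it fell at both times in both lines, with -1.82 ± 0.14 (limma adjusted p = 0.00148) and -0.97 ± 0.14 (adjusted p = 0.00801) in COLO858 and -1.39 ± 0.10 (adjusted p = 0.00207) and -1.94 ± 0.10 (adjusted p = 0.000584) in MMACSF. CENPA, the centromeric H3, fell by -2.69 ± 0.17 at 24 h in COLO858 (limma adjusted p = 0.00102) and by -2.49 ± 0.16 and -3.40 ± 0.16 in MMACSF (adjusted p = 0.00154 and 0.000428). H2AFY, which encodes macroH2A1, passed in MMACSF, falling by -0.90 ± 0.12 and -0.87 ± 0.12 (adjusted p = 0.00769 and 0.00688).

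Of 16 genes tied to cell cycle exit (CDK inhibitors, pocket proteins, and DREAM complex subunits), 1 rose and 4 fell at 24 h and 0 rose and 2 fell at 48 h in COLO858. CCNG2, a cyclin of resting cells, rose by 1.79 ± 0.26 at 24 h (limma adjusted p = 0.00819), while the CDK inhibitors CDKN2B (-2.01 ± 0.21, adjusted p = 0.00363), CDKN2C (-1.18 ± 0.14, adjusted p = 0.00484), and CDKN2D (-1.56 ± 0.13, adjusted p = 0.00192) and the DREAM subunit LIN9 (-1.57 ± 0.17, adjusted p = 0.00381) fell. At 48 h CDKN2B (-2.22 ± 0.21, adjusted p = 0.00303) and CDKN2D (-0.87 ± 0.13, adjusted p = 0.00942) remained lower. In MMACSF the CDK inhibitor CDKN1B rose by 1.30 ± 0.11 (adjusted p = 0.00257) at 24 h and 1.32 ± 0.11 (adjusted p = 0.00191) at 48 h, and CDKN1A (-1.005 ± 0.12, adjusted p = 0.00528) and LIN9 (-1.14 ± 0.17, adjusted p = 0.00933) fell at 48 h. CDKN1A had a positive estimate at 48 h in COLO858 (0.75 ± 0.12, adjusted p = 0.0107) that did not pass. The CCNG2 estimates at 48 h in COLO858 (1.39 ± 0.26, limma adjusted p = 0.0168) and in MMACSF were also positive and did not pass. In MMACSF they were 1.40 ± 0.25 (adjusted p = 0.0174) at 24 h and 1.39 ± 0.25 (adjusted p = 0.0149) at 48 h. In COLO858 the 4 of 16 that fell at 24 h stood against 5.71% of all genes, and the 1 that rose against 4.11%. The 2 that fell at 48 h stood against 4.73%. In MMACSF 15 of the 16 were tested. Of all genes there, 2.22% rose at 24 h, and 3.42% rose and 5.41% fell at 48 h.

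The mean profile of the members over the 12 libraries, centred within each line on log2(FPKM + 1), was compared with 11268 genes as a description. Genes outside the group with the most similar profiles were MIR5047 (Pearson r = 0.993), CHST3 (0.987), STIM1 (0.981), C1orf216 (0.978), and GALT (0.978), where the 12 points share 6 groups and their DMSO libraries. CHST3, a chondroitin sulfotransferase, went from 3.32 ± 0.15 to 7.59 ± 0.07 and 10.9 ± 0.50 FPKM (SD, n = 2) in COLO858 and from 4.63 ± 0.13 to 9.66 ± 0.07 and 9.02 ± 0.06 in MMACSF. GALT, an enzyme of galactose metabolism, went from 18.9 ± 3.12 to 40.9 ± 2.79 and 52.3 ± 5.13 FPKM in COLO858 and from 23.8 ± 2.94 to 43.8 ± 2.24 and 40.7 ± 4.22 in MMACSF. Among the members, which enter the profile themselves, HIST2H2BE (0.984) and HIST1H2BD (0.981) lay closest to it and HIST1H4H (0.943) farthest of the 6 with a level in both lines.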

How the data were processed

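RNA was measured in 12 libraries of 2 melanoma cell lines (6 groups of 2). Stranded, poly(A)-selected libraries with spike-in RNA gave single reads 50 bases long. The authors aligned these with TopHat (default settings, hg19) and quantified genes with Cuffdiff, and the FPKM they deposited (1 table per line, called normalized counts in the labels) were used as given. Versions, annotation, and strand setting are not given in the sources used here. FPKM carries no read depth, so counting error is unknown.

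Each line was fitted with limma 3.58.1 in R 4.3.3 on log2(FPKM + 1), 3 groups, with empirical Bayes moderation and a mean-variance trend. Tests covered rows whose mean reached 1 FPKM in some group. P-values are two-sided, Benjamini-Hochberg adjusted over all rows tested, with a threshold of 0.01. Line differences were interactions in a 6-group model. The constant understates fold-changes of low genes. The script was tested on simulated data. Alternatives changed the constant, minimum, replicate block, scaling, trend, small RNA rows, and libraries used.

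The 8 members and all lists were chosen with earlier results of these data known, and 1 of the 8 is not reported here. Named genes are the other 7 members, and from each other list the largest rise and fall that passed at each time in each line (all that passed if 5 or fewer). Genes placed head to head with members were added by position. Annotation was GENCODE v44 lifted to GRCh37. Older histone symbols were matched through RefSeq synonyms for 71 of 71 rows, and 63 had an annotated stop codon.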

Additional observations from a re-analysis of the deposited data

Results flagged for a closer look

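The change with drug differed between the lines for HIST2H2BE at 48 h against DMSO, where COLO858 exceeded MMACSF by 1.72 on the log2 scale (limma interaction, adjusted p = 0.000181, SE 0.14). Over the fits that left out 1 library this difference stayed past the threshold. From 24 to 48 h, HIST2H2BE differed by 0.98 (adjusted p = 0.00557) and HIST1H2BD by 1.62 (adjusted p = 0.00984), in both cases with COLO858 higher. Of these, HIST1H2BD did not pass when any 1 of the 12 libraries was left out, and HIST2H2BE did not pass without any 1 of 10. The test for an outlying library within a group was not run, since it needs more than the 2 libraries each group had.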

How the results depend on the processing

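The numbers of members called were recomputed under each alternative, and those of the 48 h against 24 h comparison in MMACSF stayed at 0 in all. Leaving out 1 library gave counts of 1 to 5 at 24 h and 2 to 5 at 48 h in COLO858, 0 to 2 and 0 to 3 in MMACSF, 1 to 2 for the line difference at 48 h, and 0 to 1 for that from 24 to 48 h. Such fits have fewer samples, and a lone library is assumed to vary like the other groups. In each of the comparisons just named they also called fewer of all genes than the main fit.

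With the replicate number as a replicate block, counts were 6 and 6 at 24 and 48 h in COLO858, 4 from 24 to 48 h, 6 and 5 in MMACSF, and 2, 3, and 4 for the line differences. Calls over all genes rose as well. In COLO858 they went from 1247 to 5719 at 24 h, from 1202 to 5549 at 48 h, and from 175 to 2280 between these times. In MMACSF they went from 734 to 3284 at 24 h and from 1113 to 3790 at 48 h. For the line differences they went from 505 to 2396, from 1017 to 3434, and from 403 to 1774. The numbers were not taken to pair the libraries, since the labels do not say what they mark and each pair of groups gives only 2 pairs. Deviations from the group means of same-numbered libraries correlated at 0.196 to 0.211 in COLO858 and 0.0628 to 0.113 in MMACSF, and at 0.753 to 0.779 and 0.590 to 0.673 without small RNA rows.

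Fits on only the libraries compared, which have fewer samples, gave, for 24 and 48 h, 2 and 4 calls in COLO858, 0 and 2 in MMACSF, and 0 for the line difference from 24 to 48 h (12 calls lost). That last count was 1 with a constant of 0.1 FPKM, no minimum, or median-ratio rescaling. The line difference at 24 h became 1 with a constant of 0.1, and that at 48 h became 2 with a constant of 10. A constant of 10 lost 3 calls, all of HIST1H2AC, and no minimum lost 4, of HIST1H2AC, HIST1H1C, and HIST1H2BD. Leaving out small RNA rows added H2AFJ at 24 h and HIST1H1C at 48 h in MMACSF. The causes were not tested. Over all genes, only the libraries compared gave 477 calls against 1247 (24 h) and 380 against 1202 (48 h) in COLO858, and 59 against 734 and 364 against 1113 in MMACSF.

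For single members, 10 estimates changed sign, none of them past the threshold. With a constant of 10 FPKM, HIST2H2BE in the line difference at 24 h was -0.00499. With 1 library left out, the remaining sign changes were in these ranges. In MMACSF from 24 to 48 h, HIST1H2AC ran from -0.90 to 0.40 and HIST1H2BK from -0.22 to 0.38. In the line difference at 24 h HIST1H1C ran from -0.65 to 0.32 and HIST1H2AC from -1.24 to 0.0549, and at 48 h HIST1H2AC ran from -0.17 to 0.68. Unknown read depth limits values below about 1 FPKM, such as HIST1H4H under DMSO.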
